A study of Ovis aries with 15 samples.

Results

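Genes for DNA replication and for the supply of its nucleotides were followed in the mammary gland of sheep between late pregnancy and lactation. The group was a list of 51 genes, and a gene was taken as a member where its symbol stood as the name of a row in the deposited table of 24691 features. That gave 48 members. The other 3, GINS1, PRIM2 and TYMS, stood in the table under the RefSeq gene identifiers LOC101106192, LOC101106040 and LOC100037674, and their values are given apart from the counts over the 48. All 51 passed the filter on low counts that left 13345 genes for testing.

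The animals were 2-year-old Romney ewes in their first pregnancy, grazed together on pasture, and each was sampled by needle biopsy of the mammary parenchyma. The question was how gene expression differs between a gland that is still being built and a gland that makes milk. RNA of several ewes was pooled for each library, 9 libraries from day 135 of gestation and 6 from day 15 post partum. The ewes fell into 3 groups by the pasture their own dams had been offered in early gestation, ad libitum (HM), maintenance (MM) or below maintenance (LM), followed in all 3 by maintenance feeding. Each dam group held 3 pools in late pregnancy and 2 in lactation. The ewes were biopsied in both states, and the pool numbers do not say which ewes a pool held. A pool of late pregnancy held 3 ewes and one of lactation 2 by the labels, and 3 in either state by the study's methods. Each value is therefore that of a pool, and the spread between pools is smaller than the spread between ewes would be.

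DNA replication starts at origins that are marked by the origin recognition complex (ORC1 to ORC6). CDC6 and CDT1 load the ring of MCM2 to MCM7 onto the DNA there, and geminin (GMNN) holds CDT1 back from loading a second time in the same cell cycle. The kinase CDC7, CDC45 and the GINS complex turn the loaded ring into an active helicase. Primase and the polymerases alpha, delta and epsilon copy the strands, held in place by the sliding clamp PCNA, which the RFC complex loads. RPA coats single-stranded DNA, FEN1 and LIG1 finish the lagging strand, TOP2A untangles the daughter molecules, and CHAF1A and CHAF1B place histones on them. Ribonucleotide reductase (RRM1 with RRM2), thymidylate synthase (TYMS), thymidine kinase (TK1) and dUTPase (DUT) provide the deoxynucleotides. In the mammary gland, epithelial cells multiply through pregnancy and secrete milk in lactation.

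The replication genes as a group were lower in lactation. Of the 48 members, 40 were lower in lactation at an adjusted p under 0.05, against 35.2% of all genes tested, and 24 of them by more than 2-fold, against 13% of all genes. A further 6 were higher, against 33.1% of all genes, none of them by more than 2-fold. ORC5 and POLD2 did not pass the test. The median log2 change of the 48 was -1.0, and that of all genes tested was -0.03. In 31 members every lactation library lay below every late pregnancy library, against 20% of all genes, and in 3 (ORC2, RPA1 and CDT1) every lactation library lay above, against 20.2%. The 40, the 24 and the 31 include GINS2, which had 0 to 2 reads per lactation library. Its fall is bounded only at 1.15-fold or more. With the 3 members found by identifier, 43 of 51 were lower and the median was -1.02. Changes are log2 values of lactation minus late pregnancy with their standard error (SE), from the quasi-likelihood F-test of edgeR on reads per gene, with library sizes scaled by the TMM method and p-values adjusted over all genes tested.

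**Figure D1:**
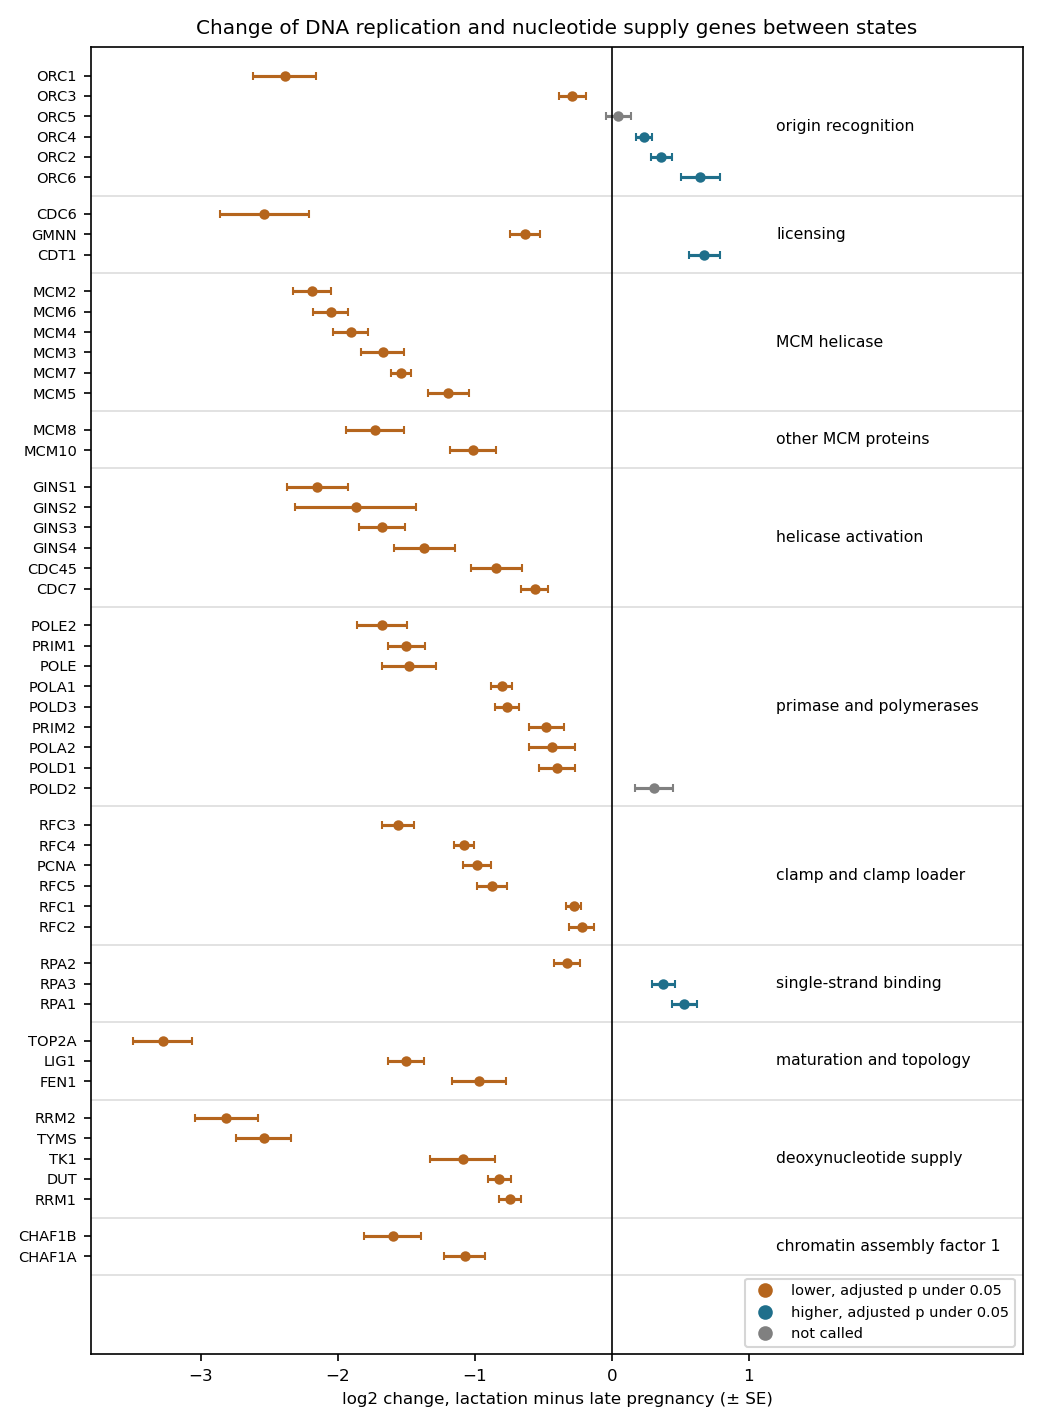
Log2 change of the 51 listed genes between lactation and late pregnancy (x axis, points with SE bars), grouped by role in replication, with colour for the call at an adjusted p under 0.05. TOP2A stands lowest at -3.28, the MCM helicase lies between -2.19 and -1.19, and the points right of 0 belong to origin recognition, CDT1, POLD2 and RPA.

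The summed level of the 48 members was 738 to 902 reads per 1000000 reads (CPM, scaled by TMM) in late pregnancy, with a median of 837. In lactation it was 450 to 518 CPM, with a median of 477. Every lactation library lay below every late pregnancy library. As a share of all reads used, the members took 0.142% ± 0.0169 (SD, n = 9) in late pregnancy and 0.0218% ± 0.00161 (SD, n = 6) in lactation. The share fell further than the CPM. Beside it, the 7 milk protein genes rose from between 13.7% and 23.4% of reads to between 71.3% and 75.8%. TMM scaling is meant to allow for such a shift, and whether it did so in full was not tested. The members were read less deeply in lactation, with 2121 to 5599 reads per library over all 48, than in late pregnancy, with 8102 to 26327. Total reads on genes ran from 7597938 to 19823166 in late pregnancy and from 10352962 to 25679416 in lactation.

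Markers of other cell types moved between the states too. All 11 markers of cycling cells fell (median -3.12), their sum being 91.0 to 190 CPM in late pregnancy against 21.1 to 35.4 CPM in lactation. All 6 T cell markers fell (38.7 to 61.4 against 12.7 to 19.3 CPM), as did 4 of 5 macrophage, 5 of 7 fibroblast and 5 of 6 endothelial markers. The summed fibroblast level was 1326 to 2120 CPM in late pregnancy and 628 to 1017 CPM in lactation, that of macrophages 137 to 186 and 64.2 to 95.1 CPM, and that of endothelial cells 200.4 to 272 and 141 to 199 CPM. Among 9 luminal epithelial markers 5 rose and 2 fell, their sum being 1678 to 2073 CPM in late pregnancy and 2636 to 2962 CPM in lactation. Of 7 myoepithelial markers 3 rose and 2 fell, and none of the 4 adipocyte markers tested passed the test, with 0 called by edgeR and adjusted p-values up to 0.347. Of the 7 B and plasma cell markers 2 could be tested, and they went opposite ways. MZB1, of plasma cells, rose by 2.54 without overlap, and CD79A, of the B cell receptor, fell by 1.27. The sum of the 7 was 3.1 to 4.60 CPM in late pregnancy and 4.04 to 8.38 CPM in lactation, and PAX5 had no read in any library of either state. The part of these shifts in the changes of the replication genes was not tested. In a biopsy, fewer cells of a type and less RNA per cell cannot be told apart. The defining markers of the labelled tissue, ELF5 at 629 and 1100 CPM and KRT19 at 622 and 947 CPM in late pregnancy and lactation, were present in both states.

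Members of the origin recognition complex moved in different directions. Of the 6, ORC1 and ORC3 fell, ORC2, ORC4 and ORC6 rose, and ORC5 did not pass the test (log2 change 0.05 ± 0.09, adjusted p = 0.771). ORC1, the subunit whose level follows the cell cycle in many cells, had 3.11 CPM in its lowest, 4.51 in its median and 5.60 in its highest late pregnancy library, and 0.440, 0.720 and 1.22 CPM in lactation. The states did not overlap, and the fall was 2.39 on the log2 scale (-2.39 ± 0.23, adjusted p = 1.69e-08). The lactation libraries held only 2 to 14 exon reads on ORC1 (median 4.5). ORC2, a core subunit, had 11.7, 13.3 and 14.5 CPM in late pregnancy and 15.3, 16.5 and 19.5 CPM in lactation. Here every lactation library stood above the late pregnancy range (log2 change 0.36 ± 0.08, adjusted p = 0.000374). ORC6 had 2.88 to 4.75 CPM in late pregnancy and 4.04 to 8.57 CPM in lactation, overlapping between the states (0.65 ± 0.14, adjusted p = 0.000531). The changes of ORC4 (0.23) and ORC3 (-0.29) were smaller and the states overlapped in both.

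Of the 3 licensing genes, CDC6 and GMNN fell and the reads on CDT1 rose. CDC6 had 3.40, 5.37 and 7.63 CPM in its lowest, median and highest late pregnancy library and 0.190, 0.484 and 2.03 CPM in lactation. That was a log2 change of -2.54 ± 0.32 (adjusted p = 8.51e-07), with a coefficient of variation in lactation of 93.2%, higher than in any other of the 48 members. The lactation libraries held only 1 to 17 reads on CDC6 (median 2.5). Geminin had 8.29, 10.1 and 11.9 CPM in late pregnancy and 4.76, 6.93 and 7.05 CPM in lactation, with no overlap (-0.63 ± 0.11, adjusted p = 4.45e-05). CDT1 had 7.33, 11 and 14.0 CPM in late pregnancy and 14.3, 18.1 and 19.1 CPM in lactation (0.68 ± 0.11, adjusted p = 2.59e-05). The rise of CDT1 was seen in reads that do not cross a splice junction, as described with the kinds of reads further on.

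All 6 subunits of the MCM helicase fell by more than 2-fold, with no overlap between the states in any of them. MCM2 had 14.3, 18.9 and 22.2 CPM in its lowest, median and highest late pregnancy library and 2.20, 4.02 and 5.63 CPM in lactation (log2 change -2.19 ± 0.14, adjusted p = 3.07e-11). MCM7 had 71.6, 81.4 and 89.1 CPM in late pregnancy and 23.5, 27.3 and 33.6 CPM in lactation (-1.54 ± 0.07, adjusted p = 3.22e-13). It was the steadiest of the 6 in late pregnancy, with a coefficient of variation of 6.68% against 11.7% to 19.1% for the others. MCM6 fell by 2.05, MCM4 by 1.91, MCM3 by 1.67 and MCM5 by 1.19 on the log2 scale, with adjusted p-values of 5.20e-07 or below. MCM8, a relative of the helicase that acts in recombination, fell by 1.73. MCM10, which acts in helicase activation, fell by 1.02, and the states overlapped for it.

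All genes for helicase activation fell as well. GINS3 had 4.84, 5.48 and 6.62 CPM in late pregnancy and 0.571, 2.06 and 2.20 CPM in lactation (-1.68 ± 0.17, adjusted p = 3.48e-08). GINS4 fell by 1.37 and GINS1, found by identifier, by 2.15 on the log2 scale. GINS2 was near the limit of detection, with 0.253 to 0.743 CPM in late pregnancy and 0 to 2 reads in each lactation library. Against a floor of 3 reads per library it was at least 1.15-fold lower, and with GINS2 set at this bound the median of the 48 members was -0.98. CDC45 fell by 0.84 and the kinase CDC7 by 0.56, and the states overlapped for CDC45 (2.28 to 4.15 and 1.09 to 2.71 CPM).

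Among primase and the polymerases, 8 of 9 genes fell and POLD2 did not pass the test. PRIM1, the catalytic subunit of primase, had 9.36, 12.1 and 14.7 CPM in late pregnancy and 3.43, 4.02 and 5.64 CPM in lactation (-1.50 ± 0.13, adjusted p = 4.91e-09). Its partner PRIM2, found by identifier, fell by 0.48, from 4.75 to 8.15 CPM to 4.17 to 5.52 CPM, with overlap. Both listed subunits of polymerase epsilon fell, POLE by 1.48 and POLE2 by 1.68 on the log2 scale. The subunits of polymerase alpha, POLA1 and POLA2, fell by 0.80 and 0.44. In polymerase delta, POLD3 fell by 0.77 and the catalytic subunit POLD1 by 0.40. POLD2 had 25.0, 36.1 and 53.1 CPM in late pregnancy and 36.1, 44.7 and 56.3 CPM in lactation (0.31 ± 0.14, adjusted p = 0.055).

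The clamp PCNA had 34.7, 42.1 and 53.3 CPM in its lowest, median and highest late pregnancy library and 18.5, 22.4 and 24.4 CPM in lactation, with no overlap (-0.98 ± 0.10, adjusted p = 4.12e-08). All 5 RFC genes for its loader fell, but by different amounts. RFC3 fell by 1.56, RFC4 by 1.08, RFC5 by 0.87, RFC1 by 0.28 and RFC2 by 0.22 on the log2 scale. RFC5 was the most even of the 48 members in late pregnancy, at 8.71 to 9.44 CPM, and had 3.52 to 6.81 CPM in lactation. The change of RFC2 (adjusted p = 0.0393) lost its call when any of 10 of the 15 libraries was left out. Of the genes for RPA, RPA1, the large subunit, had 24.1, 28.9 and 32.9 CPM in late pregnancy and 35.7, 39.8 and 56.4 CPM in lactation (0.53 ± 0.09, adjusted p = 4.83e-05). RPA3 rose by 0.38 ± 0.09 and RPA2 fell by 0.33 (-0.33 ± 0.10, adjusted p = 0.00481), both with overlap.

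TOP2A, topoisomerase II alpha, had the lowest log2 change of the 51 genes. Its lowest, median and highest late pregnancy libraries held 45.3, 72.1 and 93.9 CPM, and those of lactation 3.52, 6.03 and 13.4 CPM. The highest lactation library lay well under the lowest of late pregnancy, and the log2 change was -3.28 ± 0.22 (adjusted p = 5.85e-11), a 9.72-fold fall. The DNA ligase LIG1 fell by 1.50 and the flap endonuclease FEN1 by 0.97, with overlap for FEN1. Both listed subunits of chromatin assembly factor 1 fell, CHAF1B by 1.60 and CHAF1A by 1.07, without overlap. MKI67, which codes for the proliferation antigen Ki-67 and is no member, had 2.60 to 16.0 CPM in late pregnancy and 0.225 to 3.66 CPM in lactation (-3.15 ± 0.48, adjusted p = 7.96e-06).

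All 5 listed genes of deoxynucleotide supply fell. RRM2, the small subunit of ribonucleotide reductase that is made for S phase, had 11.9, 16.6 and 19.3 CPM in late pregnancy and 0.676, 2.23 and 3.80 CPM in lactation (-2.81 ± 0.23, adjusted p = 1.26e-09). RRM1, the large subunit, had 40.4, 46.9 and 52.0 CPM and 24.7, 26.5 and 31.5 CPM (-0.74 ± 0.08, adjusted p = 6.42e-08). Neither overlapped between the states. TYMS, found by identifier, had 8.46, 14.0 and 16.4 CPM in late pregnancy and 1.14, 2.25 and 3.34 CPM in lactation (-2.54 ± 0.20, adjusted p = 8.98e-10). DUT fell by 0.82 without overlap. TK1 fell by 1.09, from 2.06 to 4.68 CPM to 0.879 to 2.44 CPM, with overlap and a spread in lactation of 47.2% of its mean.

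**Figure D2:**
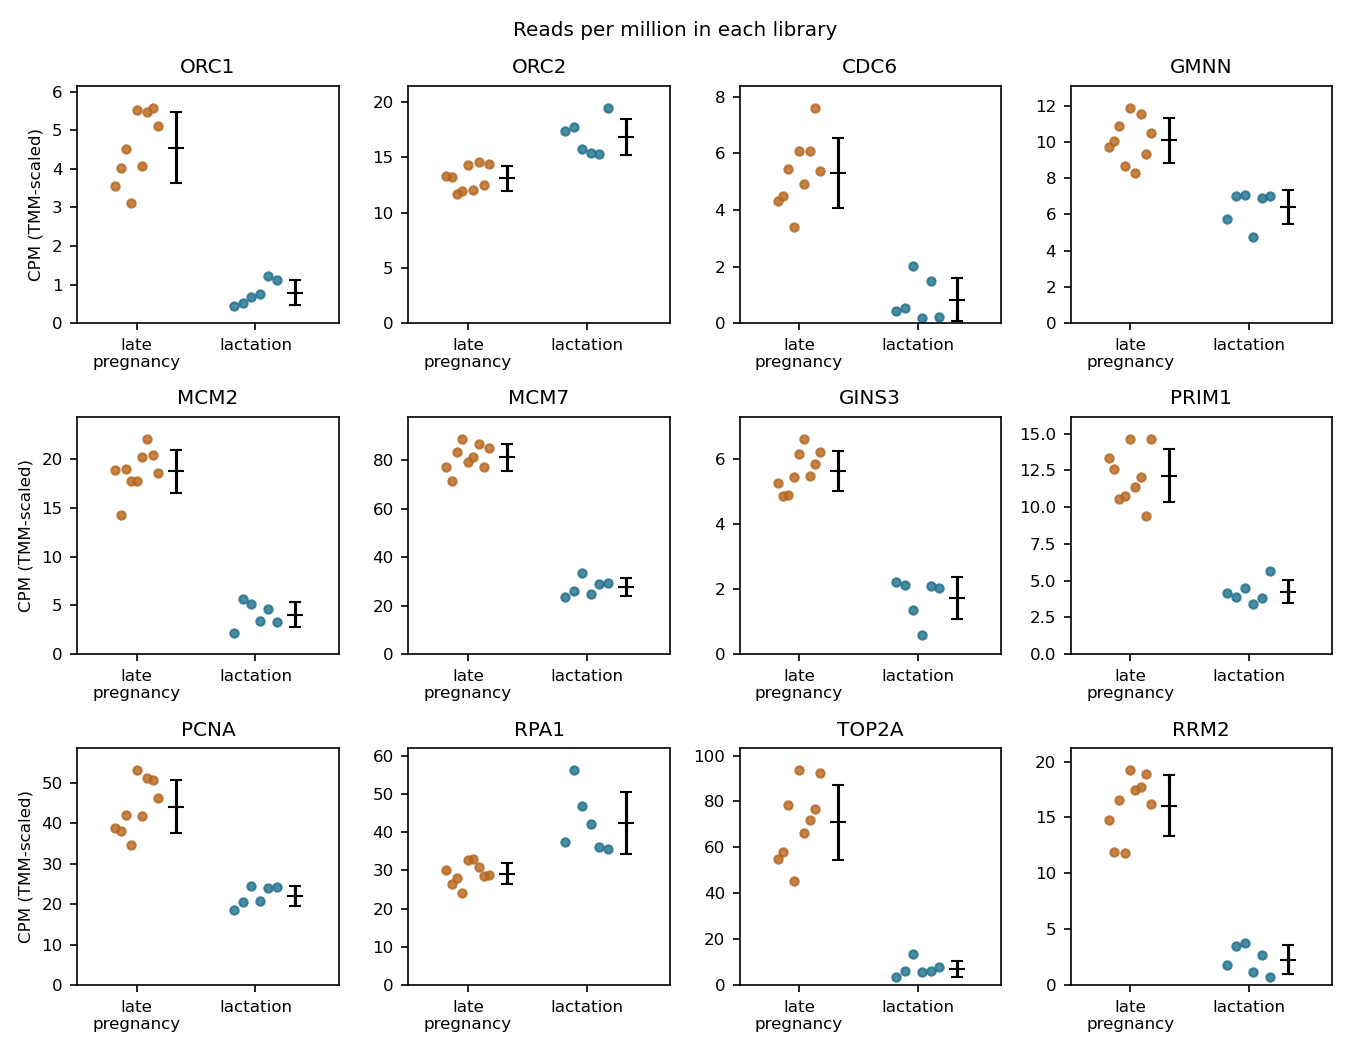
CPM (y axis, TMM-scaled, from 0) of 12 member genes in each of the 9 late pregnancy and 6 lactation libraries, with the mean and SD beside the points. The lactation points lie under all late pregnancy points for 10 of the genes, down to 3.52 CPM for TOP2A, and above them for ORC2 and RPA1.

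The direction of the 6 genes with a positive, called change rested on the scaling, since another scaling moves all genes by about the same amount and these lay near 0. With library size alone, where the median of all genes was -1.94 and that of the members -2.91, all 48 members were called lower and none higher, and the 6 genes had log2 changes of -1.67 (ORC4) to -1.22 (CDT1), all above that median. With scaling to PRPF3 and CUL1, the reference genes of the study's RT-qPCR, an alternative chosen after seeing the data, the median of all genes was -0.29. There, 41 members were lower and 3 higher, and ORC2 (0.10), RPA3 (0.11) and ORC4 (-0.03) lost their call. ORC4 also lost it with upper quartile scaling (0.083, adjusted p = 0.221 by edgeR) and with limma on the quantile-normalized RPKM (0.12, adjusted p = 0.0542).

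Levels per length of transcript, given as CPM per kilobase of exon (RPKM, TMM-scaled), differed between genes whose products join in a complex. In late pregnancy MCM7 stood at 33.3 ± 2.22 RPKM, while MCM2 to MCM6 stood between 6.19 and 10.4 RPKM. In lactation MCM7 was at 11.3 ± 1.52 RPKM and MCM2 was lowest at 1.43 ± 0.459 RPKM. The mean MCM7 level in lactation was thus above that of the other 5 in late pregnancy, but within the spread of MCM6 (10.4 ± 1.57 RPKM). This comparison across the states rests on the TMM scaling. Within polymerase delta, POLD2 stood at 23.0 RPKM in late pregnancy and 28.8 in lactation, and POLD1 at 2.06 and 1.53. Apart from MCM7, the levels over 20 RPKM in late pregnancy were those of DUT (28.2), POLD2, PCNA (21.6) and RFC4 (20.9). At the other end stood POLE at 0.733 and GINS2 at 0.753 RPKM. In lactation the order of the highest members was POLD2 (28.8 ± 4.33), RPA1 (22.9 ± 4.35), RPA3 (16.3 ± 1.99) and DUT (15.9 ± 1.88), of which RPA3 and DUT lay within each other's spread.

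**Figure D3:**
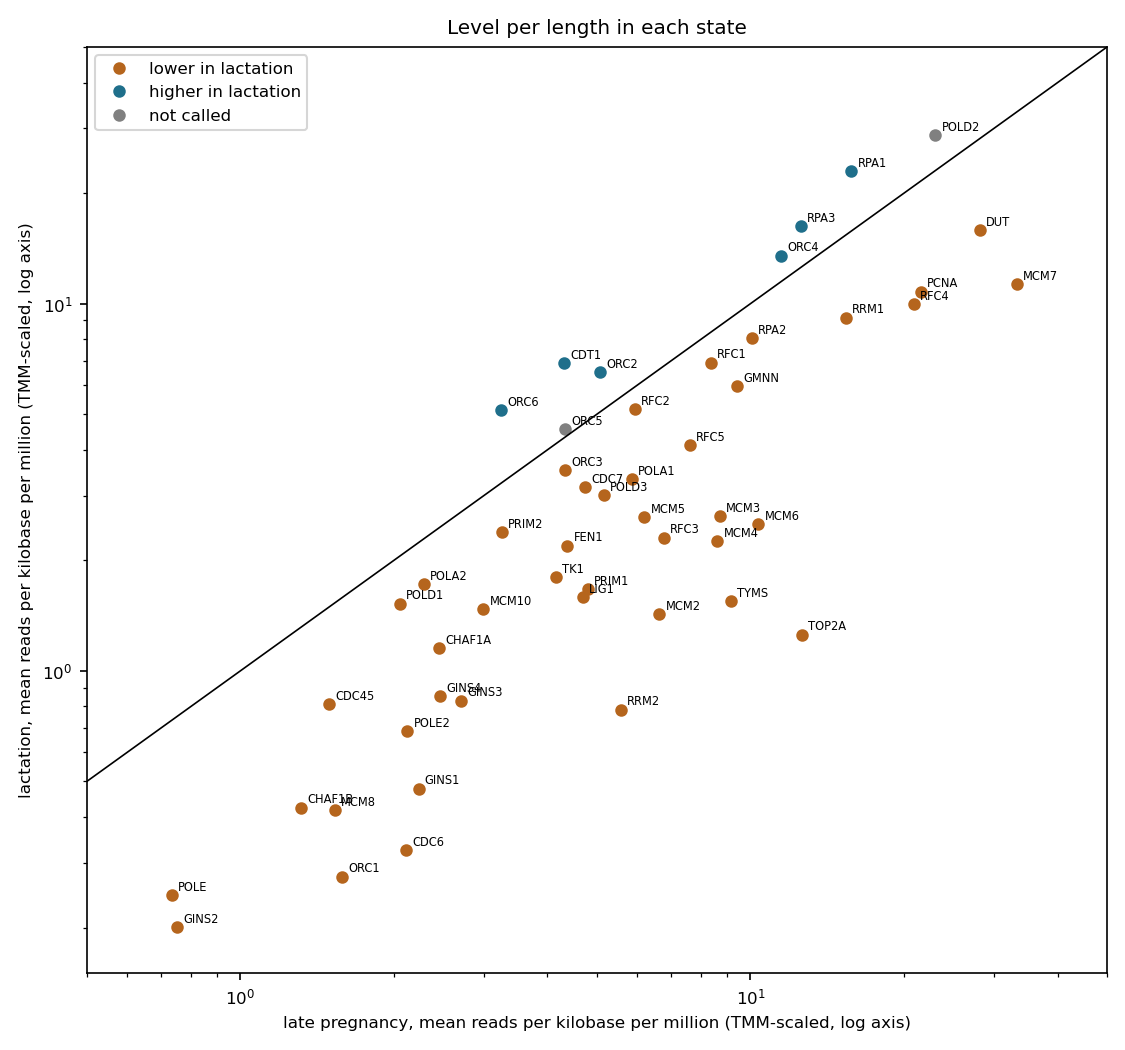
Mean level per length of each of the 51 genes in late pregnancy (x axis) and in lactation (y axis), both in RPKM on log axes, with the diagonal marking equal levels. MCM7 falls from 33.3 to 11.3, TOP2A from 12.6 to 1.26, while POLD2, RPA1, RPA3 and ORC4 lie above the diagonal.

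Ratios of 2 genes within a library do not depend on the scaling between libraries. For 18 pairs of partners or paralogs, picked with earlier results of these data known, the log2 ratio of reads per kilobase was compared between the states by a two-sided exact permutation test over all 5005 ways to assign the 15 libraries to the states, whose smallest possible p is 0.0004, with adjustment over the 18 pairs. The S-phase genes fell relative to their counterparts. RRM2 stood at a log2 ratio of 1.38 ± 0.33 (SD, n = 9) to RRM2B, the small subunit used outside S phase, in late pregnancy and at -2.31 ± 1.24 (n = 6) in lactation. On the linear scale the ratio of reads per kilobase, RRM2 to RRM2B, went from 2.60 to 0.202, without overlap (exact p = 0.0004, adjusted p = 0.0006). TOP2A to its paralog TOP2B changed from -1.13 to -4.18 with the same p. TK1 to the mitochondrial TK2 changed from -0.30 to -1.07, with overlap (exact p = 0.0364, adjusted p = 0.0409). MCM8 to its partner MCM9 changed from -1.22 to -3.29, without overlap.

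Partners within a complex also shifted against each other. PRIM1 to PRIM2 went from 0.56 ± 0.27 to -0.52 ± 0.37, ORC1 to ORC2 from -1.70 ± 0.26 to -4.50 ± 0.52, RFC3 to RFC2 from 0.19 ± 0.20 to -1.16 ± 0.36, and RRM2 to RRM1 from -1.48 ± 0.15 to -3.72 ± 0.83. MCM2 to MCM5 went from 0.10 ± 0.19 to -0.89 ± 0.38. RPA2 fell against both RPA1 (change -0.83) and RPA3 (change -0.68). Each of these 7 ratios had no overlap between the states and an exact permutation p of 0.0004. Smaller shifts with overlapping libraries were seen for POLD1 to POLD2 (-0.78, adjusted p = 0.00609 by the exact test), CHAF1B to CHAF1A (-0.49, adjusted p = 0.0277 by the exact test) and POLA1 to POLA2 (-0.40, adjusted p = 0.0398 by the exact test). The ratio of POLE2 to POLE was 1.53 ± 0.22 and 1.58 ± 0.61 (exact p = 0.839), and that of ORC6 to ORC2 was -0.64 ± 0.26 and -0.37 ± 0.43 (exact p = 0.151), so neither passed. For the licensing genes, CDC6 to CDT1 changed by -3.65 and geminin to CDT1 by -1.33, both without overlap, with CDT1 counted on all exon reads. These 2 ratios depend on the reads counted. On exon-exon junction reads, described further on, the log2 changes were -1.98 for CDT1, -0.68 for geminin and -2.56 for CDC6. Geminin thus fell less than CDT1 there.

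**Figure D4:**
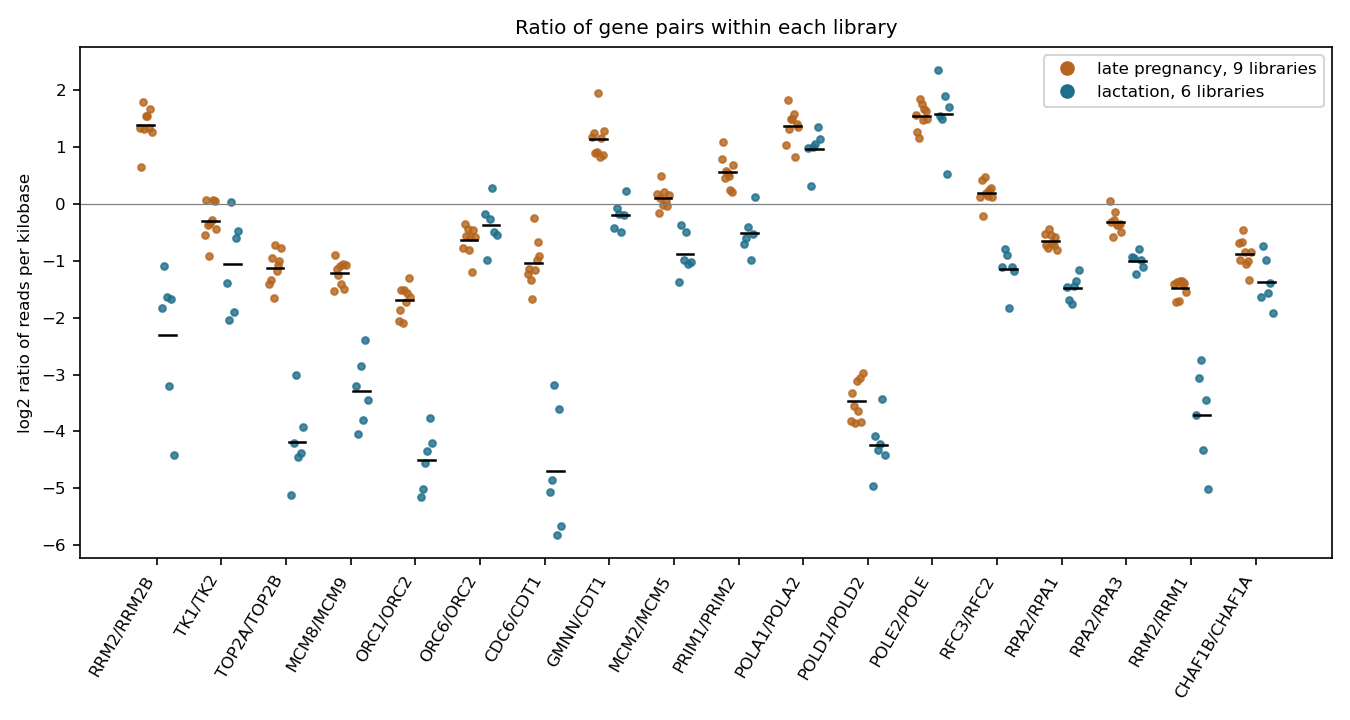
Log2 ratio of reads per kilobase (y axis) of 18 gene pairs in each late pregnancy and lactation library, with a bar at the mean of each state. Among the pairs that separate, RRM2/RRM2B falls from 1.38 to -2.31, while POLE2/POLE lies near 1.5 in both states. CDC6/CDT1 falls from -1.04 to -4.70 with CDT1 counted on all exon reads, which rose while its junction reads fell.

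The table also counts reads that cross an exon-exon junction, which come from spliced RNA, and reads on the whole gene, from which reads on introns follow by subtraction. The libraries were not strand-specific by the kit named in the labels, so reads from the opposite strand would be counted too. Junction reads were tested as an alternative chosen after seeing the data. Of 46 members with enough of them, 37 were lower in lactation, against 33% of all genes, and 5 were higher, against 31.3%. The sign was that of the exon reads in 44 of the 46, the exceptions being CDT1 and ORC5. Junction reads were 66.4% of exon reads in the median member in late pregnancy and 66.2% in lactation.

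CDT1, at chromosome 14, 13527870 to 13540332, with 14 exons, behaved differently on its junction reads. They made up 17.6% of its exon reads in late pregnancy and 2.92% in lactation, 359 and 22 reads in all. A late pregnancy library held 16 to 61 of them (median 40), and a lactation library 1 to 6 (median 3). On junction reads CDT1 fell by 1.98 on the log2 scale (-1.98 ± 0.28, adjusted p = 2.06e-06), whereas its intron reads rose by 0.79 ± 0.13 (adjusted p = 2.15e-05). The exon reads that rose thus moved with the intron reads and against the junction reads. No other feature overlapped CDT1, and the next gene, APRT, began at 13540495 and had a log2 change of 0.29. In CDC6, its partner in loading, exon reads (-2.54) and junction reads (-2.56) fell alike.

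Intron reads could be tested for 39 members, of which 26 were lower in lactation, against 29% of all genes, and 3 were higher, against 29%. In 25 of the 32 members that fell on exon reads and could be tested on intron reads, the intron reads fell too. The median log2 change on intron reads was -0.67, and that of all genes was -0.01. ORC6 rose on intron reads (0.62) as on exon and junction reads, while RPA1 fell on intron reads (-0.35 ± 0.15, adjusted p = 0.0489) and rose on exon and junction reads. PRIM2, found by identifier, rose on intron reads by 0.44 and fell on the others.

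ORC1, at chromosome 1, 26530996 to 26566611, stood apart. Its introns held 98.9% of all reads on the gene in late pregnancy and close to all in lactation, against a median of 13.5% and 14.1% over the 48 members. In every library ORC1 was among the 16 genes with the most intron reads, with 4409 to 14818 of them in late pregnancy against 44 to 164 reads on its exons. On intron reads ORC1 rose by 2.91 ± 0.43, opposite to its exon reads (-2.39) and junction reads (-3.1). The library HM lactation 1 held 62012 of these intron reads and the other 5 lactation libraries 5574 to 15043, and without that library the rise was 1.57 ± 0.13 (adjusted p = 5.11e-10). HM lactation 1 also differed in the whole, with 12.9% of its reads on introns against 5.74% to 6.54% in the other lactation libraries and 13.8% to 15.3% in late pregnancy. Leaving it out changed the sign of 1 member on exon reads, ORC5 (-0.02), which was not called either way. Intron reads were also frequent in GINS2 (89.2% and 92.4% of reads on the gene) and POLE2 (79.9% and 90.1%), and both fell on them, by 1.47 and 0.61. What the intron reads of these genes come from was not tested.

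**Figure D5:**
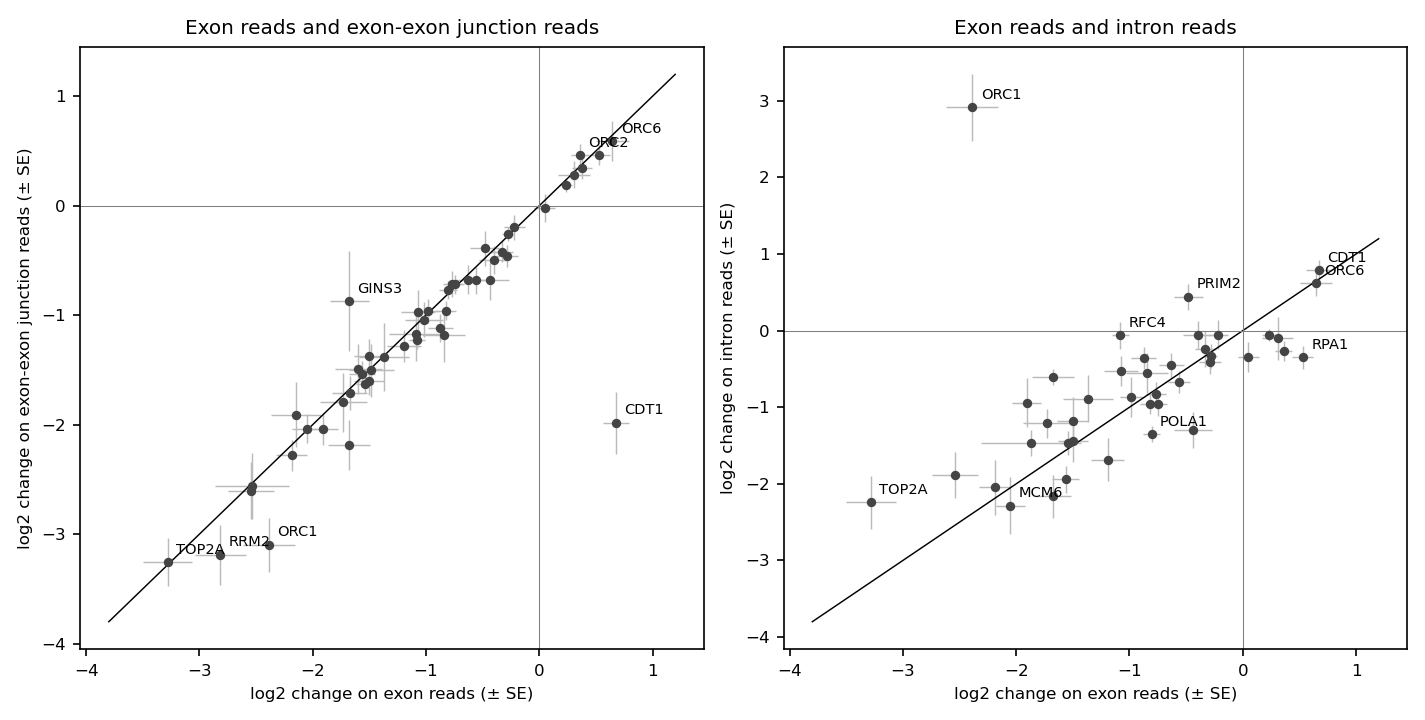
Log2 change on exon reads (x axis) against that on exon-exon junction reads (left) and on intron reads (right), with SE bars, for the listed genes that could be tested, and the line of equal change. CDT1 lies far under the line on junction reads, at 0.68 and -1.98, and ORC1 far above it on intron reads, at -2.39 and 2.91.

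Genes around the replication machinery were read from 4 lists that hold no member, against the background of 35.2% of all genes lower and 33.1% higher. Of 33 further origin and fork factors, 23 fell and 1 rose, with a median of -0.50. BLM, a helicase that resolves recombination intermediates, fell most, by 2.89, from 2.68 to 5.30 CPM to 0.338 to 0.952 CPM. MCM9 was the gene that rose (0.24, adjusted p = 0.0112), and it did so from 12.1 to 14.0 CPM to 11.9 to 18.5 CPM, with overlap. Of 33 RB and E2F pathway genes, which switch replication genes on and off, 24 fell and 2 rose, with a median of -0.70. E2F8, a repressor of this family that cycling cells make, had 1.1 to 3.1 CPM in late pregnancy and 0 to 2 reads per library in lactation, at least 4.23-fold lower against a floor of 3 reads per library. E2F1 (-1.30), E2F3 (-1.15) and E2F5 (-0.31) fell, and E2F6 (0.51) and E2F4 (0.32) rose. MYC fell by 1.80 from 46.2 to 56.7 CPM to 11.9 to 18.2 CPM, and RB1 (0.21, adjusted p = 0.147) did not pass. Of 21 chromatin assembly genes, 15 fell and 3 rose, with a median of -0.44. HMGB2, a chromatin protein of proliferating cells, fell by 2.84 from 14.0 to 25.9 CPM to 1.83 to 3.53 CPM, and the chromatin remodeller ATRX rose by 0.42.

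Genes of nucleotide synthesis that are no members did not move in 1 direction. Some of them, such as RRM2B and DCK below, also serve deoxynucleotide supply. Of 40 genes tested, 17 fell and 16 rose, against the 35.2% and 33.1% of all genes, with a median of -0.12. PRPS2, which makes the ribose phosphate that purines and pyrimidines are built on, had 2.13, 2.40 and 2.81 CPM in late pregnancy and 13.6, 20.0 and 27.9 CPM in lactation (3.02 ± 0.14, adjusted p = 2.43e-13). CAD, which starts pyrimidine synthesis, rose by 1.67 from 40.0 to 57.6 CPM to 131 to 180 CPM. The folate enzymes SHMT1, MTHFD2 and MTHFD1 rose by 2.25, 1.35 and 1.12, and RRM2B rose by 0.77. ADA, which breaks down adenosine, fell by 2.49 from 6.11 to 8.37 CPM to 0.659 to 1.69 CPM. PAICS, an enzyme of purine synthesis, fell by 1.35, the salvage enzyme HPRT1 by 1.05 and deoxycytidine kinase (DCK) by 1.13. With library size alone, 38 of the 40 were lower and 2 higher.

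Between the dams' feeding groups, no difference passed the test for any member. The library names also carry a code, L007 or L008. All LM libraries had L008, all HM libraries but HM late pregnancy 3 had L007, and MM libraries had both. Dam group and this code can thus not be fully told apart, and the part of the code was not tested. In the 9 late pregnancy libraries edgeR called 0 of the 48 members and 0% of all 13747 genes tested, and at an unadjusted p under 0.05 it gave 7 members and 4.15% of all genes. In the members the smallest adjusted p was 1.00. The 7 were FEN1, MCM6, RFC3, MCM3, DUT, MCM4 and CHAF1A, each with its highest mean in the MM pools. MCM6, for example, had 37.7 ± 3.89 CPM in MM, 30.2 ± 2.14 in HM and 30.4 ± 4.88 in LM (SD, n = 3 each). The summed level of the 48 members was 895 ± 11.6 CPM in MM, 820 ± 76.1 in LM and 790 ± 48.5 in HM. The number of members at an unadjusted p under 0.05 was 0 without the library MM late pregnancy 1, beside 3.38% of all genes, and 12 without LM late pregnancy 2, beside 5.3%. With library size alone it was 13, beside 6.27%. For the interaction of dam group with state, edgeR called 0 members and 0% of all genes, with 3 members and 6.56% of all genes at an unadjusted p under 0.05.

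Among libraries of 1 state the members varied little in late pregnancy and more in lactation. The coefficient of variation had a median over the 48 members of 14.4% in late pregnancy (3.09% to 29.9%) and of 19.1% in lactation (5.68% to 93.2%), where fewer reads lay on the members. The lowest summed levels in late pregnancy were 738 CPM in LM 1 and 740 CPM in HM 2, and the highest were 902 and 901 CPM in 2 of the MM pools. Shared sequence was a small matter for most members. In 4 of the 48 under 99% of reads were uniquely placed, with the lowest share, 85.9%, in MCM2, and counting uniquely placed reads alone again gave 40 lower and 6 higher. MCM2 and CDC45 share 2 and 66 bases with TPRA1 and UFD1L, which had log2 changes of 0.32 and 0.28, and TK1 shares 72 bases with the transfer RNA gene TRNAS-GGA, which had too few reads for a test.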

How the data were processed

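RNA-seq of 15 pooled libraries was used, each placed in its state and dam group by its labels. The authors used CLC Genomics Workbench to map paired reads, and the table they deposited has 24691 features, with counts of reads on exons, on whole genes, on exon-exon junctions and uniquely placed. The submitters' processing notes name the genome build Oar v3.1 and the study's methods another version, so coordinates are given as the table holds them. The deposited RPKM are the authors' reads per kilobase of exon scaled to 1000000 reads on genes, which were recomputed from the counts to within 3.5e-07, and the deposited normalized values are those RPKM after quantile normalization. The authors' own columns of fold changes and p-values hold a comparison of the states and were not used.

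Exon reads (whole-gene reads for 5583 features without a transcript) were tested in edgeR 4.0.16 (R 4.3.3) after filterByExpr with the state as group, with TMM library sizes and the quasi-likelihood F-test, no covariates, adjusted by Benjamini-Hochberg. Intron reads are whole-gene less exon reads. CPM use TMM library sizes. Dam group was tested over the late pregnancy libraries, and its interaction with state over all. Ratios used 0.5 added reads per gene. DESeq2 1.42.0, limma 3.58.1 (on log2 of the quantile-normalized RPKM plus 0.1), other scalings, filters, reads and left-out libraries were alternatives. On simulated data for lactation against late pregnancy, over 12789 genes, the script recovered 87.9% of genes changed 2-fold (a log2 change of 1) and 100% of those changed 4-fold, and 4.62% of its calls were false. The simulation changed 100 genes at each size, as many up as down. It therefore does not test the scaling under the large shift in composition between the states. All other steps used Python 3.11.15 (numpy 2.4.6, scipy 1.17.1, pandas 2.3.3).

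The members and lists were chosen with earlier results of these data known. Named are all members, MKI67, and the gene of each pathway list with the largest fall and rise among those called and averaging 1 CPM or more. Other genes named were chosen after their values were seen. The reads carry no molecular identifiers. The ewe numbers in the study's methods imply different ewes in the pools of a state, and pools of different states could share ewes. The p-values measure the spread between these pools, each of several ewes. A search for promoter motifs was planned and not run, since no genome sequence was used here.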

Additional observations from a re-analysis of the deposited data

Results flagged for a closer look

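In 144 sets of libraries of 1 state, 9 held a library whose gap to its nearest neighbour was large for the range of its set by Dixon's criterion, which chance gives in about 1 of 20 sets. In lactation, ORC3 was at 10.9 CPM in LM 1 against 7.99 to 8.91 in the other 5 libraries. MCM3 was at 11.1 CPM in MM 1 against 6.15 to 7.87. POLA2 was at 6.68 CPM in HM 2 against 3.31 to 4.48, and in the same library the log2 ratio of POLA1 to POLA2 was 0.31 against 0.97 to 1.34. The log2 ratio of RFC3 to RFC2 was -1.83 in LM 2 against -1.18 to -0.79. HM 1 had 12.9% of its gene reads on introns against 5.74% to 6.54%.

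In late pregnancy, the log2 ratio of RRM2 to RRM2B was 0.65 in HM 2 against 1.26 to 1.78 in the other 8 libraries. That of geminin to CDT1 was 1.94 in LM 2 against 0.82 to 1.27, and that of RFC3 to RFC2 was -0.22 in HM 3 against 0.12 to 0.46.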

How the results depend on the processing

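With library size alone, where the median of all genes was -1.94, the median of the members was -2.91, no member was higher, 48 were lower without overlap and 0 higher, 1 was higher on intron reads, and the summed level was 1419 CPM in late pregnancy and 218 in lactation. The signs of ORC2 (-1.55), ORC4 (-1.67), ORC5 (-1.85), ORC6 (-1.26), CDT1 (-1.22), POLD2 (-1.59), RPA1 (-1.38) and RPA3 (-1.54) turned. In the lists, 0 RB and E2F, 0 chromatin assembly and 0 origin and fork genes were then higher, and 38 nucleotide synthesis genes lower and 2 higher. Origin and fork genes higher were 0 with no filter and 2 with DESeq2. The median of the members was -1.15 with upper quartile scaling (all genes -0.18) and -0.85 over the 35 members with at least 10 reads in every library. With PRPF3 and CUL1 it was -1.26, 3 members were higher, and ORC4 (-0.032) and ORC5 (-0.21) turned negative. ORC5 also turned with upper quartile scaling (-0.10), no filter (-0.0023), at least 10 reads (-0.036), junction reads (-0.017) and in leave-one-out fits (-0.016 to 0.089). CDT1 turned on junction reads (-1.98), and GINS3 lost its call there (-0.87, adjusted p = 0.0976). The cause of these shifts was not tested.

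In leave-one-out fits 38 to 40 members were lower, 6 to 7 were higher and the median ran from -1.05 to -0.95, and on intron reads 24 to 28 were lower and 3 higher. POLA2 lost its call without LM lactation 2, MM lactation 1 or MM lactation 2, and POLD2 gained one in 4 such fits and with DESeq2 (adjusted p = 0.0399). Pools of the same number in a dam group correlated at -0.045 to 0.12, which does not settle whether they held the same ewes. The main tests treat the pools of the 2 states as independent. With a replicate block of dam group and pool number, 37 members were lower, 6 were higher and the median was -0.98, and ORC3, POLA2 and RFC2 lost their call. Limma on the normalized RPKM gave 38 lower and 5 higher, and ORC4 (adjusted p = 0.0542), POLA2 (0.144) and POLD1 (0.0983) lost their call. When intron reads were scaled by the library sizes of the exon reads, 21 members were lower on them and 3 higher, against 26 and 3 in the main fit. Depth limits GINS2 and E2F8, at 0 to 2 reads per lactation library, and E2F7, at 0 to 3. Reads were also few in lactation for other members, among them CDC6 (1 to 17), ORC1 (2 to 14), GINS4 (2 to 19), CHAF1B (3 to 10) and MCM8 (4 to 23).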
